A study of Saccharomyces cerevisiae with 33 samples.

Results

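The genes described here are those of the yeast proteasome, the protease that degrades ubiquitin-tagged proteins. They were chosen by gene name, as 32 genes of the core and regulatory particles together with their transcriptional activator RPN4. SEM1, which encodes a small lid protein, was not among them and is listed with the assembly and accessory genes below. All 33 genes were on the array with 1 probe set each, among 5449 Saccharomyces cerevisiae genes tested, and none lay below the background of the array. They comprised 7 genes of the α ring, 7 of the β ring, 10 of the base, 8 of the lid and RPN4 itself.

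Transcript levels were measured on Affymetrix Yeast Genome 2.0 arrays in yeast strains with altered levels of the INO2 and INO4 activators of phospholipid synthesis, grown under carbon (C) or nitrogen (N) limitation. All strains were listed as prototrophic, mating type a and of the CEN.PK background. They all grew in aerobic chemostats at a set dilution rate in minimal medium that contained inositol and choline. The 11 groups held 3 arrays each, 18 arrays under C limitation and 15 under N limitation. The reference strain carried no deletion. The opi1Δ strain lacked the repressor Opi1, the ino2Δ and ino4Δ strains lacked 1 activator each, and ino2Δino4Δ lacked both. Each deletion had been replaced by a kanamycin cassette, and each genotype was represented by 1 strain. The reference, ino2Δ, ino4Δ and ino2Δino4Δ strains each had 1 group under either limitation. The C-limited opi1Δ cultures, in which CO2 production oscillated, were sampled at the top (maximum) and at the bottom (minimum) of the CO2 profile, which gave this genotype 2 groups under C limitation and 1 under N limitation.

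The proteasome consists of a 20S core particle, a barrel of α and β rings whose β subunits Pre3, Pup1 and Pre2 cut peptides, and a 19S regulatory particle that binds ubiquitin chains, unfolds substrates and feeds them into the core. The regulatory particle is built from a base, with the ATPases Rpt1 to Rpt6, and a lid, with the deubiquitinase Rpn11. Rpn4 is a short-lived transcription factor that binds an element shared by most proteasome gene promoters and is itself degraded by the proteasome, which forms a feedback loop.

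Values were deposited log2 signals, and a difference of 1 on this scale is a doubling. Genes were called at an adjusted p below 0.01 in 1 limma fit of all 33 arrays, adjusted over all genes tested. Array medians lay between 7.14 and 7.44. OPI1 signals in the opi1Δ arrays lay between 4.91 and 5.43, against 7.56 to 8.26 in the reference arrays. Over all arrays the mating type a gene STE2 lay between 7.99 and 11.48. The type α gene STE3 lay between 5.26 and 6.30. Another type α gene, MF(ALPHA)1, was at 9.34 to 9.41 in opi1Δ at the top of the CO2 profile and at 11.33 to 11.49 in N-limited opi1Δ. In the C-limited reference it was at 5.72 to 5.86. The cause was not tested. In 4 C-limited arrays INO2 or INO4 went against the label. The arrays labelled ino2Δ replicates 2 and 3 had INO4 at 5.08 and 5.06, beside INO2 at 5.22 in both. The array labelled ino4Δ replicate 3 had INO2 at 5.19 and INO4 at 5.08. The array labelled ino2Δino4Δ replicate 1 had INO4 at 6.64 and INO2 at 5.17. In the C-limited reference INO2 lay between 6.19 and 6.26 and INO4 between 6.74 and 6.96. These ino2Δ and ino4Δ arrays thus had both transcripts low, as in a double deletion. The ino2Δino4Δ array had INO2 alone low, as in ino2Δ. A further 5 arrays shared a deviation from their groups that included HAC1, a regulator of the unfolded protein response, with log2 differences of -2.95 to -3.32 from the arrays of the same group without the deviation. These were opi1Δ at the bottom of the CO2 profile replicates 1 and 3, N-limited reference replicate 1, and N-limited ino2Δino4Δ replicates 1 and 3. Nothing in the labels states that replicates came from separate cultures, so p-values measure the spread between these arrays.

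RPN4 was lowest in C-limited opi1Δ at the top of the CO2 profile. Its log2 signal (YDL020C) was 8.33, 8.27 and 8.19 in these 3 arrays, against 9.36, 9.37 and 9.45 in the C-limited reference and 9.69, 9.52 and 9.61 in opi1Δ at the bottom of the profile. Every array at the top of the profile lay below every other array of the series.

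RPN4 was thus 2.18-fold lower at the top of the CO2 profile than in the reference (log2 difference -1.13 ± 0.15 SE, limma adjusted p = 1.31e-06). It was 2.54-fold lower than at the bottom (-1.34 ± 0.15, limma adjusted p = 5.15e-08). At the bottom of the profile its difference from the reference was 0.22 ± 0.15 (limma adjusted p = 0.286). The C-limited reference was not divided by CO2 phase. In comparisons of opi1Δ at the top with the reference, the deletion and the phase therefore cannot be told apart.

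**Figure D1:**
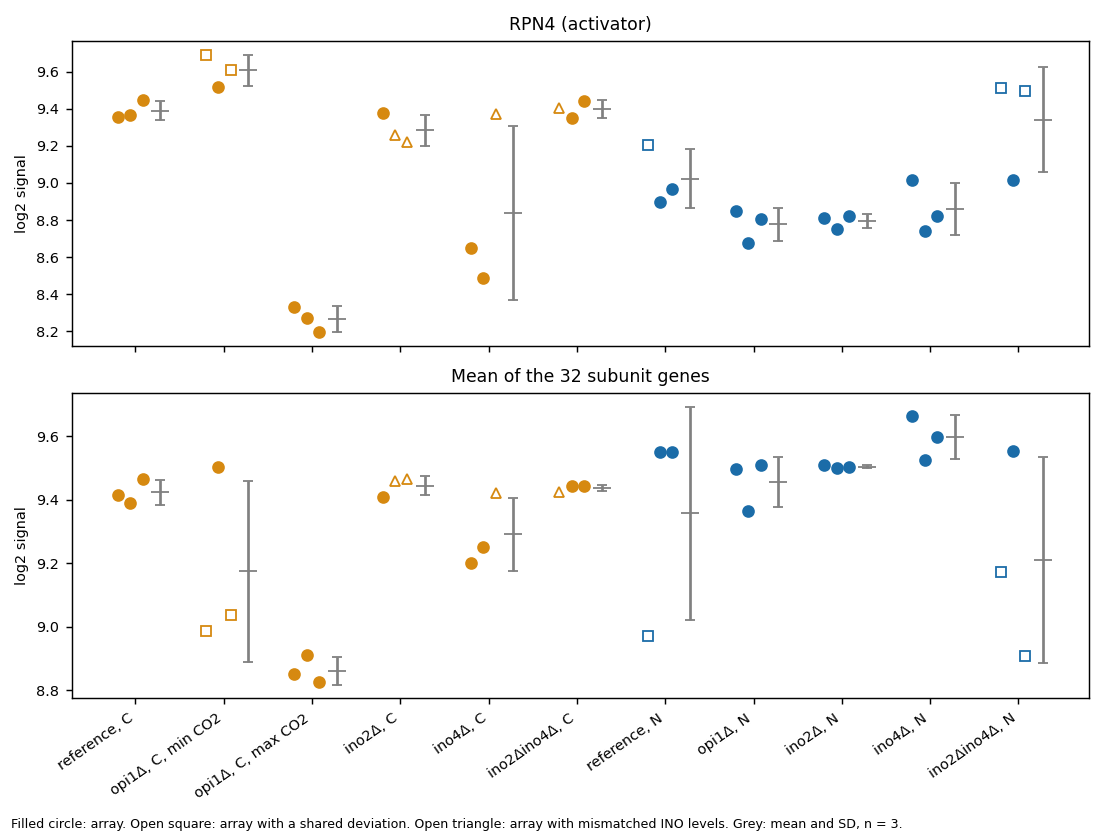
Log2 signal of RPN4 (upper panel) and mean log2 signal of the 32 subunit genes (lower panel) on each of 33 arrays, by group on the x axis (C, carbon limitation, orange; N, nitrogen limitation, blue). Grey marks give the mean and SD of 3 arrays, open squares the 5 arrays with a shared deviation and open triangles the 4 arrays with mismatched INO levels. The 3 arrays of opi1Δ at maximum CO2 are lowest for RPN4, and their subunit means of 8.82 to 8.91 are matched only by an open square at 8.91.

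Among the other C-limited groups, RPN4 was 9.38, 9.26 and 9.22 in the arrays labelled ino2Δ, of which replicates 2 and 3 were mismatched arrays, and 9.41, 9.35 and 9.44 in those labelled ino2Δino4Δ, of which replicate 1 was. In ino4Δ it was 8.65 and 8.49 in replicates 1 and 2 and 9.37 in the array labelled replicate 3. The first 2 ino4Δ arrays lay below the reference arrays, and the third, which was a mismatched array, lay within them.

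Under N limitation RPN4 was 9.20, 8.90 and 8.97 in the reference, 8.85, 8.68 and 8.81 in opi1Δ, 8.81, 8.75 and 8.82 in ino2Δ and 9.02, 8.74 and 8.82 in ino4Δ. In N-limited ino2Δino4Δ it was 9.52, 9.01 and 9.50. All N-limited arrays apart from 2 of the deviating arrays, ino2Δino4Δ replicates 1 and 3, lay below all 3 C-limited reference arrays.

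Ordered by group mean, RPN4 ran from 8.27 ± 0.07 (SD over 3 arrays) in opi1Δ at the top of the profile through 8.78 ± 0.09 in N-limited opi1Δ, 8.79 ± 0.04 in N-limited ino2Δ, 8.84 ± 0.47 in C-limited ino4Δ, 8.86 ± 0.14 in N-limited ino4Δ and 9.02 ± 0.16 in the N-limited reference. The upper groups were C-limited ino2Δ (9.28 ± 0.08), N-limited ino2Δino4Δ (9.34 ± 0.28), the C-limited reference (9.39 ± 0.05), C-limited ino2Δino4Δ (9.40 ± 0.05) and opi1Δ at the bottom of the profile (9.61 ± 0.08). Neighbours in this order overlapped in their arrays except at 3 steps, above opi1Δ at the top of the profile, between the N-limited reference and C-limited ino2Δ, and below opi1Δ at the bottom of the profile.

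The subunit genes fell at the top of the CO2 profile as well. The mean log2 signal over the 32 subunit genes was 8.85, 8.91 and 8.82 in opi1Δ at the top of the profile, against 9.42, 9.39 and 9.46 in the C-limited reference. Of the 33 genes, 19 were called lower and none higher, where 13.7% of all genes tested were called lower and 17.5% higher. The median difference of the 33 genes was -0.56 (range -1.13 to -0.28), beside 0.08 for all genes tested. All 33 genes had 3 arrays below the 3 reference arrays, which was so for 28.9% of all genes tested.

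None of the 6 arrays of this comparison shared the deviation described above, but the arrays that did entered the common estimate of the spread. With those 5 arrays left out, 32 of the 33 genes were called lower, all but RPN13 (log2 difference -0.28, limma adjusted p = 0.0273), beside 20.2% of all genes. A limma fit of the 2 groups alone called all 33 lower (23.4% of all genes), and the methods' t-test called 31 (18.6%).

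**Figure D2:**
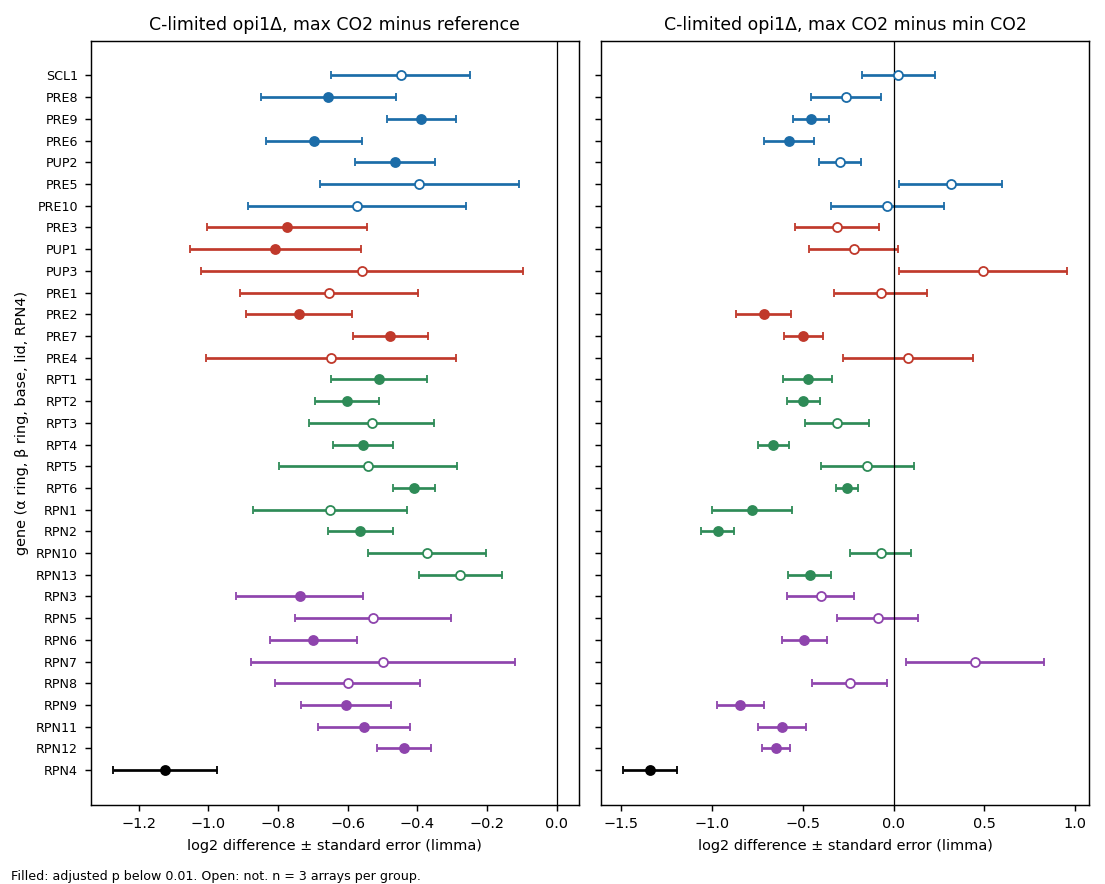
Log2 difference (x axis) with its standard error from limma for the 33 proteasome genes (y axis, coloured by α ring, β ring, base, lid and RPN4), in C-limited opi1Δ at maximum CO2 against the reference (left) and against minimum CO2 (right), 3 arrays per group. Filled points had an adjusted p below 0.01, 19 on the left and 16 on the right, and all points of the left panel lie below 0.

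In the α ring, which gates the entry to the core, 4 of 7 genes were called lower at the top of the profile: PRE6 (-0.70 ± 0.14), PRE8 (-0.66 ± 0.19), PUP2 (-0.46 ± 0.11) and PRE9 (-0.39 ± 0.10). The differences of PRE10, SCL1 and PRE5 were -0.57 ± 0.31, -0.45 ± 0.20 and -0.39 ± 0.28 and were not called. In the β ring 4 of 7 genes were called lower, and these included the 3 genes of the catalytic subunits, PUP1 (-0.81 ± 0.24), PRE3 (-0.77 ± 0.23) and PRE2 (-0.74 ± 0.15), as well as PRE7 (-0.48 ± 0.11). Of the β ring genes not called, PRE1 had a difference of -0.65 ± 0.26, PRE4 of -0.65 ± 0.36 and PUP3 of -0.56 ± 0.46.

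The base held the subunit genes with the smallest adjusted p. RPT6, an ATPase of the base, was at 9.20, 9.21 and 9.20 at the top of the profile and at 9.58, 9.60 and 9.67 in the reference. RPT2, the ATPase whose tail helps open the gate of the core, was at 8.48, 8.59 and 8.54 against 9.11, 9.09 and 9.23. RPT4, a further ATPase, was at 8.91, 9.00 and 8.94 against 9.44, 9.50 and 9.57. For each of the 3 genes the arrays of both groups were separated by more than the range within either.

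The differences were -0.41 ± 0.06 for RPT6 (limma adjusted p = 6.69e-06), -0.60 ± 0.09 for RPT2 (8.71e-06) and -0.56 ± 0.09 for RPT4 (1.03e-05). RPN2, a scaffold subunit that holds the ubiquitin receptor Rpn13, fell by 0.56 ± 0.09 and RPT1 fell by 0.51 ± 0.14, which made 5 of 10 base genes called lower. RPN1, the other large scaffold, was not called at -0.65 ± 0.22, nor were RPT3 (-0.53 ± 0.18), RPT5 (-0.54 ± 0.26) and the ubiquitin receptor genes RPN10 (-0.37 ± 0.17) and RPN13 (-0.28 ± 0.12).

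In the lid 5 of 8 genes were called lower. They were RPN3 (-0.74 ± 0.18), RPN6 (-0.70 ± 0.12), RPN9 (-0.61 ± 0.13), RPN11, the deubiquitinase (-0.55 ± 0.13), and RPN12 (-0.44 ± 0.08). The genes RPN8, the partner of Rpn11, RPN5 and RPN7 had differences of -0.60 ± 0.21, -0.53 ± 0.22 and -0.50 ± 0.38.

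Against the bottom of the CO2 profile, 16 of the 33 genes were called lower at the top and none higher, where 17.0% of all genes were called lower and 28.4% higher. The median difference was -0.31 (range -1.34 to 0.49), beside 0.10 for all genes, and 18 genes had no overlap between the groups in this direction (21.9% of all genes). By sub-complex, 2 of 7 α ring, 2 of 7 β ring, 7 of 10 base and 4 of 8 lid genes were called, and RPN4.

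RPN2 had the smallest adjusted p in this comparison. Its signal was 10.19, 9.91 and 10.11 at the bottom of the profile and 9.05, 9.18 and 9.07 at the top, a difference of -0.97 ± 0.09 (limma adjusted p = 5.20e-09). The lid gene RPN12 was at 9.03, 9.19 and 9.24 against 8.61, 8.51 and 8.40 (-0.65 ± 0.08, limma adjusted p = 1.43e-07), and RPT4 fell by 0.66 ± 0.09 (limma adjusted p = 4.54e-07). In none of these genes did an array of one group reach the other.

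Replicates 1 and 3 at the bottom of the profile were among the arrays with a shared deviation. PUP3, a structural β subunit gene, was at 7.66 and 7.99 in these arrays and at 9.64 in replicate 2, against 8.92 in each of the 3 arrays at the top. With the deviating arrays left out, which leaves replicate 2 alone on the side of the bottom, 31 of 33 genes were called lower (19.6% of all genes) and the median difference was -0.68, all 33 genes being below 0. The spread of that lone array was assumed to be that of the other groups. With all arrays, a limma fit of the 2 groups alone called 9 genes lower (9.52% of all genes) and the methods' t-test 8 (5.51%).

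At the bottom of the profile against the reference, 1 gene was called higher and none lower (3.25% and 4.48% of all genes): RPN2 (0.41 ± 0.09, limma adjusted p = 0.00415). Its call was lost when any array of either group other than replicate 2 of opi1Δ was left out (adjusted p 0.0131 to 0.0259). The median difference of the 33 genes was -0.21 (range -1.05 to 0.41), beside -0.05 for all genes. Without the deviating arrays, which leaves replicate 2 alone at the bottom, these medians were 0.09 and -0.13. Without replicate 2, which leaves the 2 deviating arrays, 9 genes were called lower beside 10.9% of all genes.

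**Figure D3:**
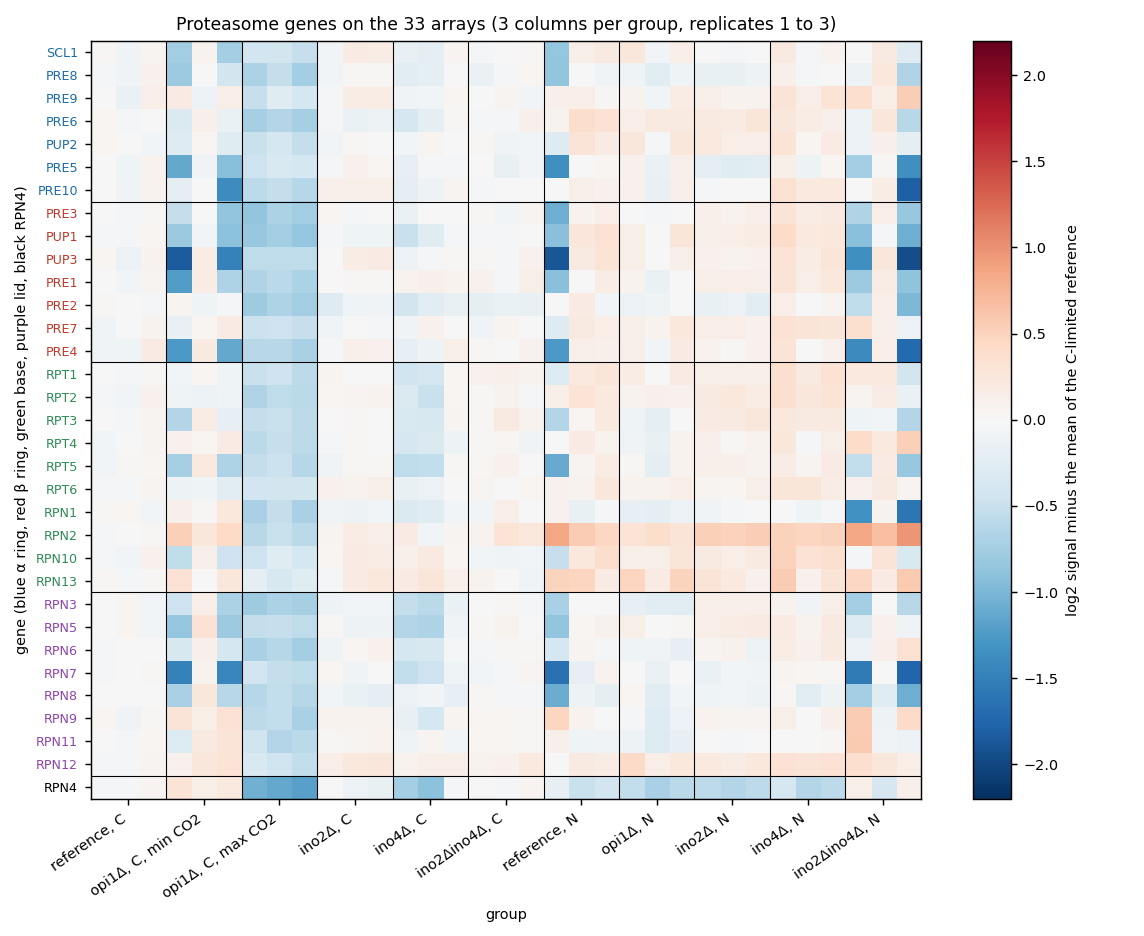
Log2 signal of each proteasome gene (rows, grouped into α ring, β ring, base, lid and RPN4) on each of 33 arrays (columns, 3 per group) minus its mean in the 3 arrays of the C-limited reference; blue is lower and red higher. The opi1Δ columns at maximum CO2 are blue in all rows, while the dark blue cells in single columns elsewhere belong to the 5 arrays with a shared deviation.

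The question of the effect of nutrient limitation was addressed in the reference strain. Under N limitation 1 of the 33 genes, RPN2, was called higher and none lower, where 14.7% of all genes were called higher and 8.61% lower. RPN2 was at 10.51, 10.22 and 10.12 under N limitation and at 9.63, 9.66 and 9.70 under C limitation, without overlap. The difference was 0.62 ± 0.09 (1.54-fold, limma adjusted p = 9.19e-06), and it was 0.51 ± 0.07 with the deviating arrays left out. It was not called in a fit of the 2 groups alone (adjusted p = 0.0109) or by the methods' t-test (0.0377).

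RPN4 had a difference of -0.37 ± 0.15 between N and C limitation (limma adjusted p = 0.0567), which was -0.46 ± 0.15 (adjusted p = 0.019) without the deviating arrays. The median over the 33 genes was -0.03 (range -0.58 to 0.62), beside 0.06 for all genes.

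The members with the largest change in the α ring, β ring and lid were not called and each rested on N-limited reference replicate 1. PRE5, an α subunit gene, was at 7.79 in that array and at 9.14 and 9.18 in the others, against 9.15, 9.05 and 9.22 under C limitation. PUP3 was at 7.61, 9.68 and 9.78 against 9.52, 9.36 and 9.57. RPN7, a lid scaffold gene, was at 7.62, 9.09 and 9.35 against 9.23, 9.28 and 9.30. Their differences were -0.44 ± 0.28, -0.46 ± 0.46 and -0.58 ± 0.38. Without the deviating arrays the difference was 0.02 for PRE5, 0.25 for PUP3 and -0.05 for RPN7, and 4 of the 33 genes were called higher, PUP3, PRE6, RPN10 and RPN2, beside 23.9% of all genes. PRE6 and RPN10 are named here after their values were seen.

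In C-limited ino2Δ and ino2Δino4Δ few genes were called. None of the 33 was called by limma in ino2Δ (0.826% of all genes were called in either direction) or in ino2Δino4Δ (0.569%). In each of these comparisons 1 gene had an unadjusted p below 0.05, beside 14.5% and 12.3% of all genes, and the methods' t-test called 0, beside 2 and 4 of all genes. Differences ran from -0.15 to 0.21 in ino2Δ and from -0.16 to 0.20 in ino2Δino4Δ, with medians of 0.01 in both. The arrays labelled ino2Δ replicates 2 and 3 and ino2Δino4Δ replicate 1 were mismatched arrays. Without the mismatched arrays, which left ino2Δ with 1 array whose spread was assumed to be that of the other groups, none of the 33 was called either, beside 0.422% of all genes in ino2Δ and 4.42% in ino2Δino4Δ. The differences then ran from -0.29 to 0.15 and from -0.15 to 0.26. These comparisons and those of ino4Δ and opi1Δ shared the same 3 C-limited reference arrays.

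In C-limited ino4Δ 1 gene, RPN4, was called lower and none higher, where 6.74% of all genes were called lower and 6.64% higher. Its difference was -0.55 ± 0.15 (limma adjusted p = 0.00814) and the arrays overlapped through replicate 3. Leaving out any 1 of the reference arrays or ino4Δ replicate 1 or 2 ended the call (adjusted p 0.0243 to 0.10), and with the mismatched arrays left out the difference was -0.82 ± 0.12 (adjusted p = 1.75e-05). In that fit 3 genes were called lower, RPN4, RPT2 and RPT4 (12.4% of all genes). With the deviating arrays left out instead, 7 were called lower (15.7%). The mean of the 32 subunit genes was 9.20 and 9.25 in ino4Δ replicates 1 and 2 and 9.42 in the array labelled replicate 3. Of the 33 genes, 27 had a difference below 0 (median -0.12), beside 2309 of all 5449 genes (median 0.05).

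Under N limitation each mutant was compared with the same 3 reference arrays, of which replicate 1 was a deviating array. No gene was called by limma in opi1Δ (2.53% of all genes were called in either direction), ino2Δ (0.606%) or ino4Δ (0.551%), and 2, 0 and 5 genes had an unadjusted p below 0.05, beside 16.0%, 11.8% and 12.8% of all genes. The methods' t-test called 0 in each, and at most 10 of all genes in either direction. The median difference was 0.06 in opi1Δ, 0.12 in ino2Δ and 0.26 in ino4Δ, and -0.11, -0.05 and 0.04 without the deviating arrays. For all genes it was -0.03, -0.03 and -0.01, and -0.07, -0.06 and -0.03 without those arrays. The mean of the 32 subunit genes lay between 9.37 and 9.51 in opi1Δ, at 9.50 to 9.51 in ino2Δ and between 9.53 and 9.66 in ino4Δ. In the reference it was 8.97 in replicate 1 and 9.55 in each of the others.

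RPN4 itself differed from the N-limited reference by -0.25 ± 0.15 in opi1Δ (95% interval -0.55 to 0.06), by -0.23 ± 0.15 in ino2Δ (-0.53 to 0.08) and by -0.16 ± 0.15 in ino4Δ (-0.47 to 0.14). In N-limited ino2Δino4Δ the difference was 0.32 ± 0.15 (limma adjusted p = 0.122), and it was 0.08 ± 0.21 without the deviating arrays.

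In N-limited ino2Δino4Δ 1 gene, RPN1, was called lower and none higher, where 8.09% of all genes were called lower and 8.06% higher. RPN1, the scaffold that docks ubiquitin receptors and deubiquitinases, was at 8.47 and 8.21 in replicates 1 and 3 and at 9.89 in replicate 2, against 9.90, 9.64 and 9.77 in the reference. The low arrays were both deviating arrays, and the third exceeded 2 of the 3 reference arrays. The difference was -0.91 ± 0.22 (limma adjusted p = 0.00304), and without the deviating arrays it was 0.18 ± 0.10 (adjusted p = 0.222). Leaving out reference replicate 1 or 3 or ino2Δino4Δ replicate 1 or 3 alone also ended the call (adjusted p 0.0107 to 0.0445).

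The other members with the largest change in their sub-complex there were PRE4, a structural β subunit gene (-0.65 ± 0.36), PRE10, an α subunit gene (-0.61 ± 0.31), and RPN7 (-0.52 ± 0.38), none of them called. Their differences without the deviating arrays were 0.02, 0.04 and 0.05. With replicate 2 left out, 5 genes were called lower (11.4% of all genes) and 2 higher (10.9%).

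The effect of each deletion was also compared between the limitations, as the N-limited effect minus the C-limited effect. For opi1Δ, taken at the bottom of the CO2 profile, 1 gene was called lower, RPN2 (-0.70 ± 0.13, limma adjusted p = 0.00119), and none higher (1.85% and 2.88% of all genes). N-limited opi1Δ was not divided by CO2 phase, so limitation and phase cannot be told apart there. No gene was called for ino2Δ (0.514% of all genes in either direction), ino4Δ (3.43%) or ino2Δino4Δ (7.6%), with 0, 9 and 3 genes at an unadjusted p below 0.05, beside 16.3%, 31.3% and 28.0% of all genes. The median differences were 0.06, 0.35 and -0.14, beside -0.035, -0.043 and -0.028 for all genes, and no t-test was run for these comparisons. Each of them used the N-limited reference, of which replicate 1 was a deviating array, and a C-limited mutant group with mismatched arrays. N-limited ino2Δino4Δ replicates 1 and 3 were deviating arrays as well.

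The deviating arrays bore on the proteasome genes unevenly. Each was compared with the arrays of its group that did not share the deviation. These were replicate 2 alone at the bottom of the profile and in N-limited ino2Δino4Δ, so that each pair of deviating arrays had 1 array to compare with, and the mean of replicates 2 and 3 in the N-limited reference. On this measure 19 of the 33 genes were lower on all 5 arrays (57.6%, beside 23.8% of all genes tested) and 5 were higher on all 5 (15.2%, beside 28.9%). Since the arrays were set apart by their values over all genes, these numbers are a description. RPN4, RPN2, RPN13, RPN9 and PRE9 were the 5 genes that were higher in all of them.

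**Figure D4:**
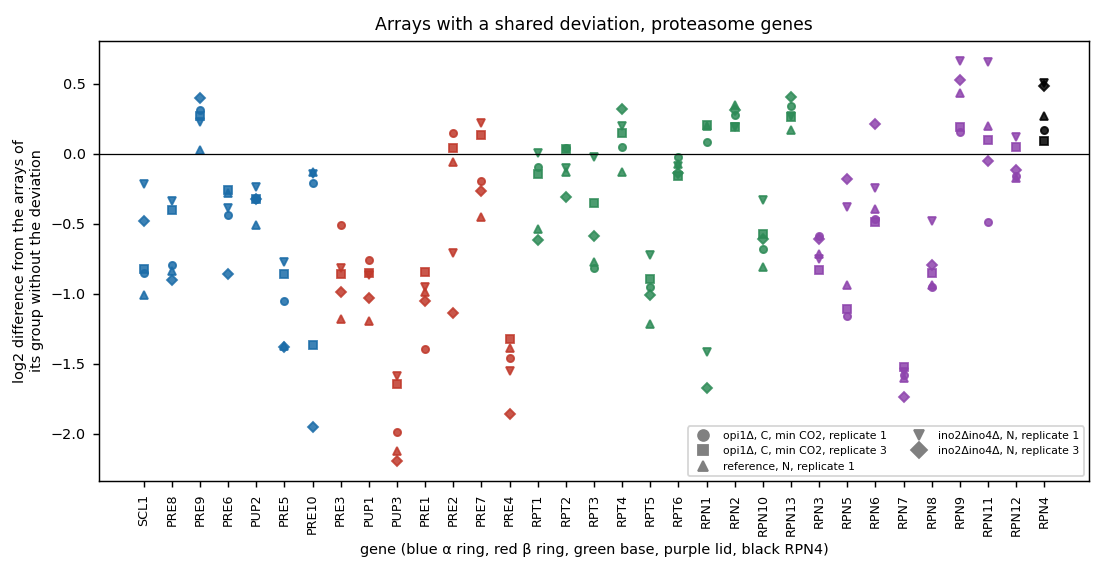
Log2 difference (y axis) of each of the 5 arrays with a shared deviation from the arrays of its group without the deviation, for the 33 proteasome genes (x axis, coloured by α ring, β ring, base, lid and RPN4). Symbols stand for arrays. PUP3, RPN7 and PRE4 lie below -1.3 on all 5 arrays, while RPN4 lies above 0 on all 5.

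The β ring was furthest from its groups, with a median over its genes of -0.94, followed by the α ring (-0.66), the lid (-0.49) and the base (-0.19), beside 0.03 for all genes. PUP3 deviated by -1.98 and -1.65 at the bottom of the CO2 profile, by -2.12 in the N-limited reference and by -1.59 and -2.19 in N-limited ino2Δino4Δ. RPN7 deviated by -1.58, -1.52, -1.60, -1.56 and -1.73 in the same order and PRE4 by -1.46, -1.33, -1.39, -1.55 and -1.86. The sizes were thus close to each other across 3 genotypes and both limitations.

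Other members deviated on some of these arrays only. RPN1 was lower on the ino2Δino4Δ arrays alone (-1.42 and -1.67, against 0.09 to 0.21 on the other 3). PRE10 deviated by -1.37 on opi1Δ replicate 3 and by -1.95 on ino2Δino4Δ replicate 3 and by -0.21 to -0.13 on the other 3. PMA1, the plasma membrane proton pump gene, deviated by -2.30 to -2.83 on all 5. The part of the deviation in the results above was not tested beyond the values given without these arrays. The median SD of the subunit genes within a group was 0.34 in opi1Δ at the bottom of the profile, 0.30 in the N-limited reference and 0.38 in N-limited ino2Δino4Δ, and 0.03 to 0.13 in the other 8 groups.

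Most subunit genes varied together over the arrays. Pearson's r of each subunit gene with the mean of the other subunit genes over the 33 arrays had a median of 0.77 (0.16 to 0.94), and 26 of 32 lay above 0.5. Over the 28 arrays without the shared deviation the median was 0.91 (0.70 to 0.97), and all 32 lay above 0.5. PUP1 had the highest value over all arrays (0.94) and RPN9 the lowest (0.16). These arrays share groups and normalisation, so the coefficients are descriptive. Among the 28 arrays, those of opi1Δ at the top of the CO2 profile had subunit means of 8.82 to 8.91. The others lay between 9.20 and 9.66. How far the coefficients, and those with RPN4 below, rest on that group was not tested. The share of all genes above 0.5 was not computed.

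With RPN4 the subunit genes had a median r of 0.19 (-0.29 to 0.79) over 33 arrays, where 4 of 32 lay above 0.5, and of 0.58 (0.08 to 0.79) over 28 arrays, where 21 did. RPN9 had the highest coefficient over all arrays (0.79) and PUP3 the lowest (-0.29). Over 28 arrays RPN1 was highest (0.79) and RPN13 lowest (0.08).

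The 10 other genes with the highest r with the mean of the subunit genes over 33 arrays were DCS1 (0.94), ERG9 (0.93), VPS34 (0.93), RUP1 (0.92), IRA1, ATG22, VPS13, DAK1, UBI4 and ARP2 (0.90). UBI4, the polyubiquitin gene that is on the list of ubiquitin pathway genes below, had the highest of these values over the 28 arrays (0.97). The 5 genes with the highest r with RPN4 were FES1 (0.93), BTN2 (0.92), HSP82, HSC82 and STI1 (0.91), of which HSP82 and HSC82 encode near-identical Hsp90 chaperones whose probes may not be fully separate.

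Genes that work with the proteasome fell in part at the top of the CO2 profile. Of 19 assembly and accessory genes 7 were called lower and 1 higher against the reference, with a median of -0.46, beside 13.7% and 17.5% of all genes. TMA17, an assembly chaperone of the base, was at 6.93, 7.14 and 7.18 against 9.15, 9.16 and 9.48, separated by more than the range within either group. It fell 4.55-fold (-2.19 ± 0.21, limma adjusted p = 7.43e-09).

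BLM10, an alternative activator of the core, fell by 1.16 ± 0.17, ECM29, a proteasome tether, by 0.87 ± 0.11, and UBP6, a proteasome-bound deubiquitinase, by 0.50 ± 0.09. CIC1, a nucleolar protein that also binds the core, was the gene called higher (1.22 ± 0.32). Of 24 ubiquitin pathway genes 11 were called lower and 2 higher (median -0.39). UBI4 was at 9.23, 9.39 and 9.14 against 10.89, 10.81 and 10.82 and fell 3.01-fold (-1.59 ± 0.21, limma adjusted p = 1.19e-06).

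SHP1, a cofactor of Cdc48, fell by 0.79 ± 0.09, the shuttle factor gene DDI1 by 0.72 ± 0.11 and the ubiquitin-conjugating enzyme gene UBC5 by 1.19 ± 0.17, while UBC4, its close paralogue, rose by 0.69 ± 0.16 and the nuclear ligase gene SAN1 by 0.56 ± 0.11. Of 7 genes that regulate RPN4 or its turnover 3 were called lower, MUB1 (-0.61 ± 0.11), which takes part in the degradation of Rpn4, and the activators HSF1 (-0.54 ± 0.10) and YAP1 (-0.92 ± 0.25). Without the deviating arrays the calls were 10 lower and 3 higher, 13 lower and 2 higher, and 5 lower in the 3 lists, beside 20.2% of all genes lower and 30.8% higher.

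Against the bottom of the profile 10 assembly and accessory genes were called lower and 1 higher, 13 ubiquitin pathway genes lower and 3 higher, and 3 RPN4 regulators lower and 1 higher (17.0% and 28.4% of all genes). TMA17 fell by 2.41 ± 0.21, UBP6 by 0.78 ± 0.09, ECM29 by 0.86 ± 0.11 and FUB1 by 0.74 ± 0.10. UBA1, the ubiquitin-activating enzyme gene, fell by 1.46 ± 0.15, DDI1 by 1.02 ± 0.11, SHP1 by 0.80 ± 0.09 and DOA1 by 0.72 ± 0.10. Of the regulators MUB1 fell by 0.83 ± 0.11, HSF1 by 0.75 ± 0.10 and UBR2, the ligase that acts on Rpn4, by 0.70 ± 0.13, while RAD6, its partner, rose by 0.75 ± 0.18. The methods' t-test called 1, 2 and 1 genes of the 3 lists lower (5.51% of all genes) and 0 higher. At the bottom of the profile against the reference, the ubiquitin ligase gene UFD2 was the gene called in these lists (0.31 ± 0.08).

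In the reference strain under N limitation, where 8.61% of all genes were called lower and 14.7% higher, 2 accessory genes were called lower, SPG5, a proteasome regulator of the stationary phase (-1.64 ± 0.15), and BLM10 (-0.75 ± 0.17). UBC5 was called lower (-0.86 ± 0.17), and the ligase gene UBR1 (0.42 ± 0.09) and UBC7 (0.55 ± 0.15) were called higher. No regulator of RPN4 was called by limma, with 2 of 7 at an unadjusted p below 0.05 beside 44.3% of all genes, and the methods' t-test called 1 accessory gene lower (4.28% of all genes) and 0 genes of the other lists.

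In C-limited ino4Δ, where 6.74% of all genes were called lower and 6.64% higher, CIC1 (-1.58 ± 0.32) and BLM10 (-0.83 ± 0.17) were called lower, and HRD1 (0.60 ± 0.11) and UBC7 (0.77 ± 0.15), which act in degradation from the endoplasmic reticulum, were called higher. CIC1 was at 5.85 and 5.94 in replicates 1 and 2 and at 7.50 in the array labelled replicate 3, against 7.94, 7.97 and 8.11 in the reference. The N-limited minus the C-limited effect of ino4Δ was called for CIC1 (1.90 ± 0.45) and BLM10 (1.02 ± 0.24).

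In N-limited ino2Δino4Δ SPG5 was at 9.27, 9.05 and 9.30 against 8.05, 8.11 and 8.08 in the reference, without overlap, and replicate 2, which did not share the deviation, was also high. It rose by 1.13 ± 0.15 (limma adjusted p = 1.94e-06). ECM29 (0.68 ± 0.11) and SEM1, a small lid protein (0.76 ± 0.20), were called higher and TMA17 (-1.05 ± 0.21) lower, where 8.06% of all genes were called higher and 8.09% lower. NPL4, a Cdc48 cofactor, was called higher (0.56 ± 0.12), UBI4 lower (-0.82 ± 0.21), and PDR3, an activator of RPN4, higher (0.84 ± 0.16). UBI4 was at 9.454 and 9.729 in the deviating replicates 1 and 3 and at 10.649 in replicate 2. In the reference it was at 10.344, 11.031 and 10.905, the first being a deviating array. For UBI4 and SEM1 the arrays of the groups overlapped. The part of the deviation in these calls was not tested. The N-limited minus the C-limited effect of ino2Δino4Δ was called for SPG5 (0.88 ± 0.21) and ECM29 (0.63 ± 0.16). No gene of the 3 lists was called by limma in C-limited ino2Δ or ino2Δino4Δ or in N-limited opi1Δ, ino2Δ or ino4Δ, where 0 to 5 genes of a list had an unadjusted p below 0.05, beside 11.8% to 16.0% of all genes, and the methods' t-test called 0.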

How the data were processed

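Total RNA from 33 chemostat samples had been hybridised to Affymetrix Yeast Genome 2.0 arrays. PLIER, run by the authors over the whole set of arrays, gave the deposited log2 values, 1 per probe set and array. The array images were not analysed here. Of 10928 probe sets, 7245 were listed in the platform annotation used, 3683 were not, and 1 had several symbols. 1746 matched no S. cerevisiae gene by symbol or gene ID, and their 95th percentile (5.47) was taken as the background. 5498 were paired with a gene, 11 symbols being updated by gene ID, and for the 47 genes with several probe sets the one with the highest mean was used. This left 5449 genes, 288 of them below background, and all were tested. Groups came from the sample labels.

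The main test was limma 3.58.1 in R 4.3.3 (lmFit, eBayes) with 1 coefficient per group and no block, 22 residual degrees of freedom, and Benjamini-Hochberg adjustment over all genes, for 11 pairwise comparisons and 4 differences between N-limited and C-limited effects. It replaced the methods' pairwise t-test, which was an alternative. The fit was tested on simulated data with independent noise and 1 spread per gene over all groups. That test could not bear on deviating arrays or on a spread that differs between groups. Summaries used Python 3.11.15 with pandas 2.3.3. The number of arrays limits the precision. An exact permutation test of 3 against 3 arrays cannot go below p = 0.1, so none was used.

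The members and companion lists were chosen with earlier results of these data known. Named were RPN4 in every comparison, per comparison and list up to 4 called genes with the smallest adjusted p, the member of each sub-complex with the largest change in 2 comparisons, and the genes nearest in pattern; for opi1Δ at the top of the profile all members are given. Over 33 pairs of same-numbered arrays the deviations from the group means correlated between -0.76 and 0.69, with 5 above 0.1, and no comparison had all its pairs above 0.1, so the numbers were not taken as pairs. Alternatives were median centring, quantile normalisation, dim genes left out, the groups of the comparison alone, eBayes with trend and robust options, the t-test, the replicate block and arrays left out.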

Additional observations from a re-analysis of the deposited data

Results flagged for a closer look

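RPN2 encodes a scaffold subunit of the proteasome base. In the test of the difference itself, the opi1Δ effect on it differed between N limitation and the bottom of the C-limited CO2 profile. Under C limitation, at the bottom of the CO2 profile, RPN2 was at 10.19, 9.91 and 10.11 against 9.63, 9.66 and 9.70 in the reference. Under N limitation it was at 9.97, 10.05 and 9.96 against 10.51, 10.22 and 10.12. The opi1Δ arrays were thus all above the reference under C limitation and all below it under N limitation. The differences were 0.41 ± 0.09 and -0.29 ± 0.09, and the N-limited minus the C-limited effect was -0.70 ± 0.13 (limma adjusted p = 0.00119). Without the deviating arrays, which include 2 of the C-limited opi1Δ and 1 of the N-limited reference arrays, it was -0.43 ± 0.11 (adjusted p = 0.00664). A fit of the compared groups alone did not call the difference between the effects (adjusted p = 0.0321). The C-limited effect was called (adjusted p = 0.00415), and leaving out any array of either group other than opi1Δ replicate 2 ended that call (adjusted p 0.0131 to 0.0259), while the N-limited effect was not called (adjusted p = 0.0787). RPN2 was higher on each of these deviating arrays than on the arrays of its group that did not share the deviation, which for opi1Δ was replicate 2 alone, and the part of this in the result was not tested. At the top of the CO2 profile RPN2 was at 9.05, 9.18 and 9.07, below the C-limited reference. The reference and N-limited opi1Δ arrays were not divided by CO2 phase. In this comparison limitation and phase therefore cannot be told apart.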

How the results depend on the processing

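Of 131 counts of members called under the alternatives that kept or jointly left out arrays, 102 stayed within 1.5 times the reported count. Of the rest, 14 were higher and 15 lower. A reported count of 0 that stayed at 0 was taken as unchanged, so comparisons with no gene called add to the 102. Fitting only the groups compared called 33 genes at the top of the CO2 profile against the reference and 9 against the bottom, and 0 for N against C limitation, opi1Δ at the bottom, C-limited ino4Δ, N-limited ino2Δino4Δ and the opi1Δ difference between limitations. The t-test called 31, 8, 0, 0, 0 and 0 in the first 6 of these. Quantile normalisation called 2 for N against C limitation, 2 at the bottom of the profile, 0 in C-limited ino4Δ and 2 in N-limited ino2Δino4Δ. In the last, median centring and the replicate block each called 2; the block changed no other count by more than 1.5 times. The trend and robust options called 0 in C-limited ino4Δ.

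Without the 5 deviating arrays the counts were 4 for N against C limitation, 0 at the bottom of the profile, 32 and 31 at the top, 7 in C-limited ino4Δ, 0 in N-limited ino2Δino4Δ and 1 for the ino4Δ difference between limitations. There the differences of PRE5 (0.019) and PUP3 (0.247) between N and C limitation turned positive, as they did without N-limited reference replicate 1 alone (ranges with 1 array left out -0.676 to 0.019 and -0.838 to 0.247), and in N-limited ino2Δino4Δ those of RPN1 (0.181), PRE10 (0.043), PRE4 (0.024) and RPN7 (0.047). That of PRE10 ran from -0.964 without ino2Δino4Δ replicate 2 to 0.012 without replicate 3. Without the mismatched arrays the count was 3 in C-limited ino4Δ and 2 for the ino4Δ difference. Single arrays of a group were assumed to vary like the other groups.

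With 1 array left out, the count ran from 1 to 2 for N against C limitation (2 without N-limited reference replicate 3), 0 to 10 at the bottom of the profile (10 without its replicate 2), 14 to 16 and 13 to 15 at the top, 0 to 3 in C-limited ino4Δ (3 without replicate 3), and 0 to 7 in N-limited ino2Δino4Δ (7 without replicate 2, 2 without reference replicate 1, 0 without reference replicate 3 or ino2Δino4Δ replicate 1 or 3). For the differences between limitations it ran from 1 to 9 for opi1Δ (9 without the bottom replicate 2), 0 to 3 for ino4Δ (3 without C-limited replicate 3) and 0 to 3 for ino2Δino4Δ (3 without N-limited replicate 2). The counts in this section are not set beside the share of all genes called, which is given above for some settings only. They are therefore not read as results about the proteasome genes. The cause of the changes in count was not tested. The promoter motif search was not run.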
